A study of Mus musculus with 14 samples.

Results

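Open chromatin was compared between long-term haematopoietic stem cells (LT-HSC) of mice that carried the Dnmt3a mutation and LT-HSC that did not, with Npm1 status as a covariate. The comparison used 7 of the 14 libraries of the study, 3 with the Dnmt3a mutation and 4 without it. Of 705361 regions in the deposited table, 25058 were tested, namely those on chromosomes 1 to 19 and X whose mean value over all 14 libraries was at least 100. DNMT3A is a DNA methyltransferase that places new methyl groups on cytosines in CpG dinucleotides. Loss of its activity is known to let blood stem cells renew at the expense of differentiation, and its mutation is frequent in clonal haematopoiesis and acute myeloid leukaemia. LT-HSC are the rare marrow cells that sustain blood formation for life, and NPM1 is a nucleolar chaperone whose mutation often accompanies that of DNMT3A in leukaemia.

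The study profiled sorted LT-HSC and MPP3 cells, a myeloid-biased multipotent progenitor, by ATAC-seq, which reads out the stretches of chromatin that a loaded transposase can reach. The Dnmt3a-mutant LT-HSC libraries were 1 of genotype Dnmt3a-flR878H/+, called Dnmt3a here, and 2 of genotype Dnmt3a-flR878H/+;Npm1-frt/+, called Dnmt3a;Npm1. The libraries without the Dnmt3a mutation were 2 of WT (Mx-Cre), called WT, and 2 of Npm1-frt/+, called Npm1. Donors were of the C57BL/6J strain and described as young, and their whole marrow was moved into young, lethally irradiated CD45.1 recipients at 1000000 cells each. All recipients, those of WT marrow included, had poly(I:C) 4 weeks after transplantation and tamoxifen 4 weeks later, and marrow was taken after 4 more weeks. Poly(I:C) induces interferon and through it the Mx1 promoter that drives Mx-Cre, which acts in blood cells and in other interferon-responsive cells. How many animals or pools stand behind a library, and whether recipient cells were gated out, was not stated in the labels. The p-values then speak of how much these libraries vary among themselves, and that variation may be technical.

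The 2 Npm1 libraries stood apart from the other LT-HSC libraries in their share of signal. The share of a library's signal that fell in the tested regions was 38.0% in Dnmt3a B, 31.03% in Dnmt3a;Npm1 A and 30.44% in Dnmt3a;Npm1 B, against 44.62% in WT A, 29.86% in WT B, 19.11% in Npm1 A and 15.37% in Npm1 B. The means were 33.2% ± 4.2 (SD, n = 3) with the Dnmt3a mutation and 27.2% ± 13.1 (SD, n = 4) without it, a difference of 5.9 percentage points (two-sided exact permutation test over 35 regroupings, p = 0.457). The groups overlapped, and both Npm1 libraries lay below every other LT-HSC library. On the first principal component of the tested regions, which held 40% of the variance, Dnmt3a B, Dnmt3a;Npm1 A and Dnmt3a;Npm1 B stood at -37.6, -10.7 and -41.6, WT A and WT B at -47.1 and -18.1, and Npm1 A and Npm1 B at 76.8 and 78.4. Dnmt3a;Npm1 B stood apart on the second component at -83.5. The total deposited signal of LT-HSC libraries was 14683769 to 27928444, and the whole-number steps of the values gave 7600000 to 18300000 reads in regions for 6 of the 7 libraries, so the depth of Npm1 B is unknown.

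The differences also varied with the level of signal. In the quartile of lowest mean value (132 or less), the median log2 difference between libraries with and without the Dnmt3a mutation was -0.28, and in the highest quartile (above 350) it was 0.26. The difference was -0.45 and 0.40 in the same quartiles for Dnmt3a;Npm1 minus Npm1, and -0.05 and 0.05 for Dnmt3a minus WT. Around each region's own mean over the 7 libraries, the median log2 values of Npm1 A and Npm1 B were 0.31 and 0.48 in the lowest quartile, and -0.16 and -0.42 in the highest. With the share of signal added as a covariate, no region was called and 251 had an unadjusted p under 0.05.

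**Figure D1:**
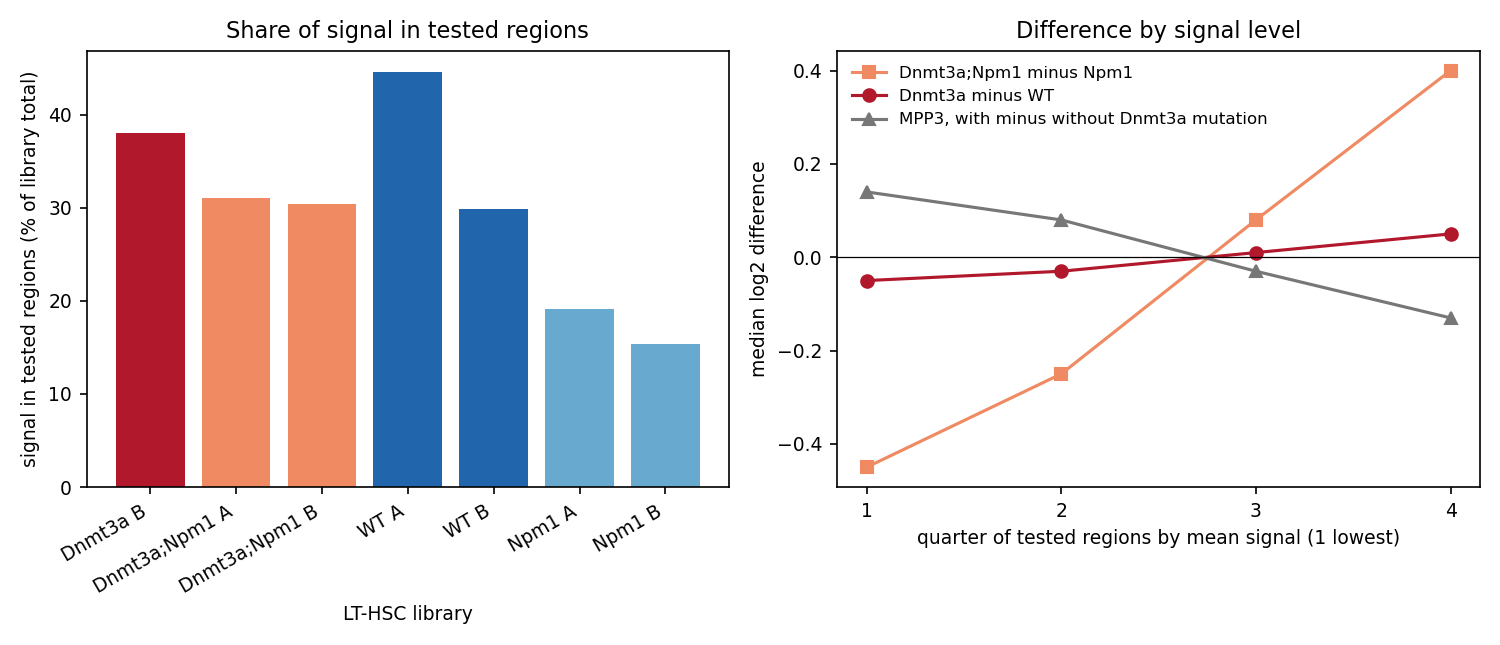
Left, the share of each LT-HSC library's signal in the 25058 tested regions, in percent of the library total, as 1 bar per library. Right, the median log2 difference in quartiles of the tested regions by mean signal. Npm1 A and Npm1 B are the lowest bars at 19.11% and 15.37%, and the Dnmt3a;Npm1 minus Npm1 line runs between -0.45 and 0.40 where the Dnmt3a minus WT line stays between -0.05 and 0.05.

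The sorted label was checked against fixed marker genes. The 28 tested regions of 11 LT-HSC marker genes, among them Procr, Hlf and Mecom, summed to a normalized signal of 6453 to 6777 in the 3 Dnmt3a-mutant LT-HSC libraries, 5363 to 6524 in the 4 LT-HSC libraries without the mutation and 4662 to 5853 in the 7 MPP3 libraries. The 20 regions of 11 MPP3 marker genes, among them Mpo, Elane and Cebpa, summed to 2832 to 3370, 2645 to 5073 and 4092 to 5989 in the same order. For LT-HSC markers the mutant libraries lay above all MPP3 libraries, and Npm1 A at 5363 lay within the MPP3 range. For MPP3 markers Npm1 A at 4980 and Npm1 B at 5073 lay within the MPP3 range, and the other 5 LT-HSC libraries, at 2645 to 3370, lay below it. The part of this in the results was not tested, and the medians of gene lists are also given without both Npm1 libraries where their sign turns. The marker genes Tek, of LT-HSC, and Fcgr3 and Ms4a3, of MPP3, had no tested region. In bulk samples, fewer cells of a type and less signal per cell cannot be told apart.

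Across the tested regions, 2 passed the threshold of 0.05 on the Benjamini-Hochberg adjusted p of limma, which is 0.00798% of regions, and both were less accessible with the Dnmt3a mutation. None was more accessible. The count depended on single libraries, with 0 called without WT B, Npm1 A or Npm1 B, 2 without Dnmt3a;Npm1 B, 4 without Dnmt3a;Npm1 A, 306 without WT A and 416 without Dnmt3a B. Without Dnmt3a B, the Dnmt3a term rests on Dnmt3a;Npm1 minus Npm1 alone. An unadjusted p under 0.05 was found for 3006 regions (12.0%), 1475 higher (5.89%) and 1531 lower (6.11%). All 3 Dnmt3a-mutant libraries lay above all 4 others in 741 regions (2.96%) and below all 4 in 726 (2.9%). With 35 equally likely regroupings of the libraries, each order would arise in a share of 0.0286 of regions. Both shares are near it, so no excess of separated regions can be read from the counts. A lack of overlap at a single region is then only a description of its values. The 741 higher and 726 lower regions are described here by position and signal level. Of the higher ones 70.0% lay within 1 kb of a gene end and 55.9% overlapped a promoter window, against 43.8% and 25.9% of the lower ones and 55.7% and 40.5% of all tested regions. Their median mean values were 318.4 and 148.5, against 197.5 for all tested regions.

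The region with the smallest p lay at Osbpl7, which encodes an oxysterol-binding protein of lipid transport, and overlapped the promoter window of the predicted gene Gm51917 (build mm10, chr11:97058396-97061835). Its normalized signal was 56.1, 107.6 and 54.8 in Dnmt3a B, Dnmt3a;Npm1 A and Dnmt3a;Npm1 B, against 136.1, 454.2, 469.7 and 423.4 in WT A, WT B, Npm1 A and Npm1 B. The groups did not overlap, and WT A lay nearest the mutant libraries. The means were 72.8 ± 30.1 (SD, n = 3) with the Dnmt3a mutation and 370.8 ± 157.7 (SD, n = 4) without it, and accessibility fell by 2.32 on the log2 scale (SE 0.37, limma adjusted p = 0.00906). The log2 difference was -2.47 (SE 0.49) with the Npm1 mutation and -2.08 (SE 0.60) without it. In MPP3 it was 1.41 (SE 0.53), which did not pass the threshold.

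The other called region covered the start of Pitpnm3, which encodes a membrane-associated phosphatidylinositol transfer protein (chr11:72134805-72137135). Its normalized signal was 76.5, 179.0 and 63.1 in Dnmt3a B, Dnmt3a;Npm1 A and Dnmt3a;Npm1 B, against 182.3, 375.6, 480.0 and 403.3 in WT A, WT B, Npm1 A and Npm1 B. The groups did not overlap, though Dnmt3a;Npm1 A and WT A were close. Accessibility fell by 1.89 on the log2 scale (SE 0.35, limma adjusted p = 0.0461), with differences of -2.0 with and -1.72 without the Npm1 mutation, and 0.40 (SE 0.48) in MPP3. Without Npm1 A, Npm1 B or WT B neither region was called, the limma adjusted p being 0.365, 0.163 and 0.0927 at Osbpl7 and 0.632, 0.387 and 0.110 at Pitpnm3. Pitpnm3 was also not called without Dnmt3a;Npm1 B (adjusted p = 0.0707). With both Npm1 libraries left out, the log2 differences were -1.79 (SE 0.51) and -1.42 (SE 0.46), and with the share of signal as covariate the differences were -1.65 (SE 0.51) at Osbpl7 and -1.52 (SE 0.49) at Pitpnm3, with a limma adjusted p of 1 for both.

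A further 10 lower regions of smallest p missed the threshold, with adjusted p values of 0.0794 to 0.121. At a region 283 bp from Abtb1, an ankyrin-repeat and BTB-domain gene (chr6:88833472-88835631), the normalized signal was 45.5, 143.8 and 19.9 in Dnmt3a B, Dnmt3a;Npm1 A and Dnmt3a;Npm1 B, against 183.8, 278.5, 360.0 and 411.9 in WT A, WT B, Npm1 A and Npm1 B (log2 difference -2.51, SE 0.46, limma adjusted p = 0.0794). Inside Ptprn2, over 1 kb from its ends (chr12:116640287-116642327), which encodes a receptor-type phosphatase of secretory granules, the values were 37.1, 30.2 and 28.2 with the Dnmt3a mutation and 65.3, 188.3, 436.6 and 207.4 without it (-2.52, SE 0.51, adjusted p = 0.0794). Neither pair of groups overlapped, and in both regions WT A was the lowest library without the mutation. At the start of Hcn4, a pacemaker ion channel of the heart (chr9:58822226-58824862), the values were 105.3, 169.9 and 79.7 with the Dnmt3a mutation and 180.8, 247.5, 513.1 and 417.7 without it (-1.56, SE 0.33, adjusted p = 0.0794). At Parvg, which encodes gamma-parvin, an actin-binding protein of blood cells (chr15:84324261-84327371), they were 113.7, 184.0 and 161.0 with the mutation and 255.6, 317.3, 418.0 and 460.9 without it (-1.32, SE 0.28, adjusted p = 0.0903).

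At Bahcc1, whose protein binds trimethylated lysine on histone H3, Dnmt3a B stood at 31.8 and Dnmt3a;Npm1 A and B at 138.8 and 136.1, against 99.9 in WT A and 339.6, 455.2 and 308.2 in WT B, Npm1 A and Npm1 B (-1.81, SE 0.38, adjusted p = 0.0794 by limma). The groups overlapped through WT A. Inka2, Bin1, which encodes a membrane-bending BAR protein, Samd11, Gm46259 and Btbd35f25 completed the 12. Their log2 differences were -2.65, -2.61, -1.95, -1.80 and -1.79, and the regions of Gm46259 and Btbd35f25 lay 23569 and 57692 bp from the named gene, which is then a label of position. At Btbd35f25 the difference with the Npm1 mutation was -2.64 and without it -0.52, and WT A at 76.8 lay within the mutant range.

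The 12 regions higher with the Dnmt3a mutation also missed the threshold. Inside Lrrc8d, a subunit of volume-regulated anion channels (chr5:105717802-105718845), the normalized signal was 584.3, 496.7 and 507.8 in Dnmt3a B, Dnmt3a;Npm1 A and Dnmt3a;Npm1 B, against 313.4, 384.3, 165.5 and 138.3 in WT A, WT B, Npm1 A and Npm1 B (log2 difference 1.32, SE 0.27, limma adjusted p = 0.0794). The groups did not overlap, and the Npm1 libraries were the lowest. The start of Ppme1, the methylesterase of protein phosphatase PP2A (chr7:100371483-100372565), had 556.2, 365.0 and 798.2 with the mutation and 372.1, 251.3, 204.8 and 170.0 without it (1.25, SE 0.28, adjusted p = 0.121), with Dnmt3a;Npm1 A just under WT A. The start of Ppp2r5a, a regulatory subunit of PP2A (chr1:191396616-191398112), had 972.3, 784.3 and 1260.4 with the mutation and 745.8, 605.5, 418.0 and 308.2 without it (1.09, SE 0.25, adjusted p = 0.149).

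The start of Sgo1, which encodes shugoshin, the protector of sister-chromatid cohesion at centromeres (chr17:53688894-53690426), had a normalized signal of 614.6, 567.1 and 518.6 in Dnmt3a B, Dnmt3a;Npm1 A and Dnmt3a;Npm1 B, against 418.3, 477.4, 190.4 and 178.6 in WT A, WT B, Npm1 A and Npm1 B (1.10, SE 0.26, limma adjusted p = 0.153). Ppp2r3a, another regulatory subunit of PP2A, had 535.0, 649.6 and 719.4 with the mutation and 382.7, 544.4, 157.3 and 221.8 without it (1.20, SE 0.29, adjusted p = 0.166), where WT B lay within the mutant range. Golgb1, which encodes the Golgi tether giantin, and St3gal3, a sialyltransferase, had log2 differences of 1.05 and 1.07. Tmppe, Oser1, A630089N07Rik, Kbtbd3 and Angel2 completed the 12 at 1.02, 0.95, 1.59, 0.96 and 0.98, with adjusted p values of 0.184 to 0.201. In each of the 12, both Npm1 libraries were the lowest of the 7, and the difference was larger with the Npm1 mutation (1.24 to 2.29) than without it (0.23 to 0.85). None of these 12 passed the threshold for the interaction.

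**Figure D2:**
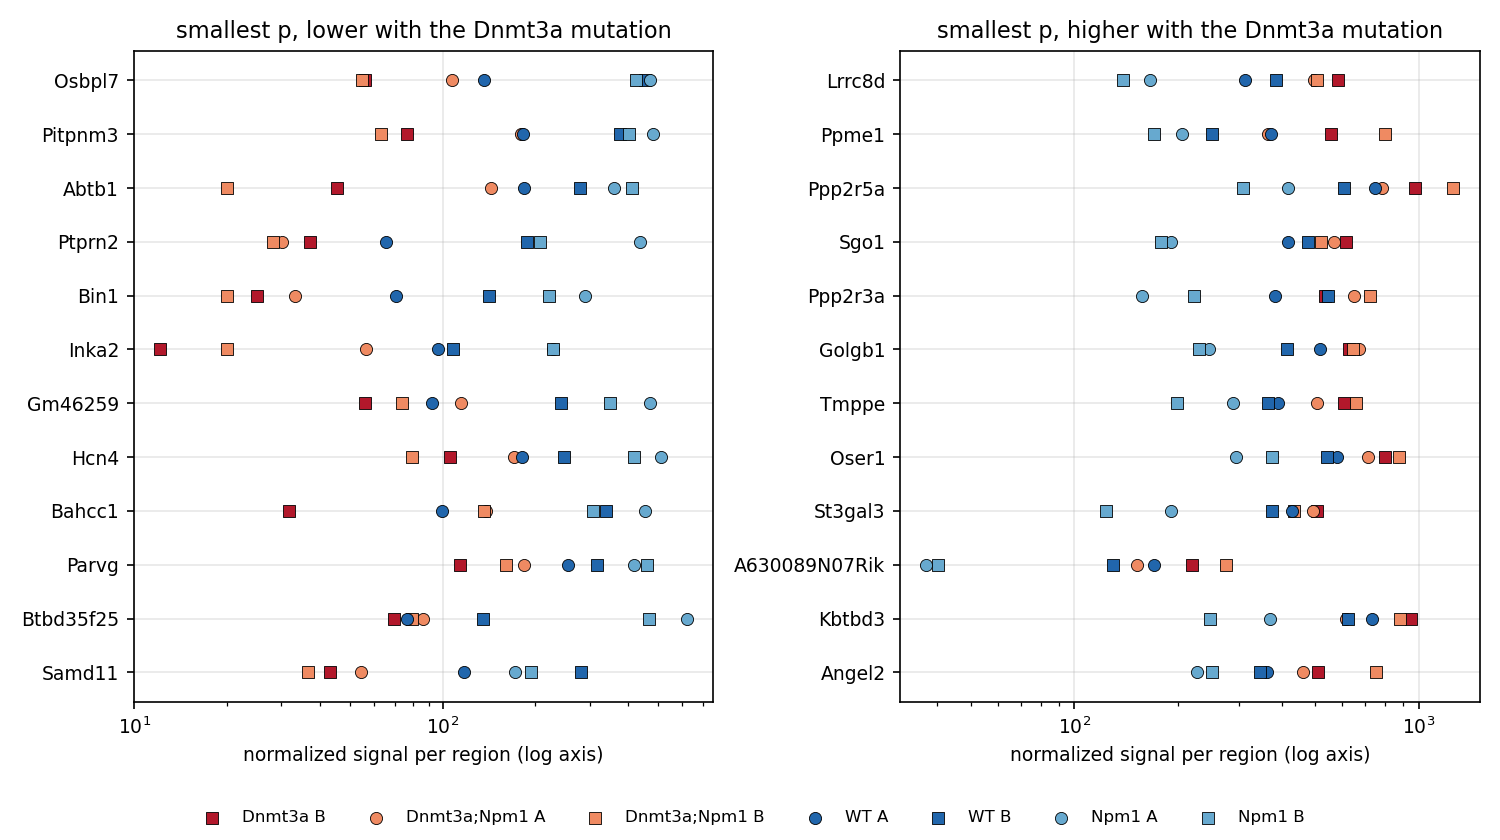
Normalized signal per region on a log axis in each of the 7 LT-HSC libraries, for the 12 regions of smallest p in each direction. Red and orange points are libraries with the Dnmt3a mutation, blue points libraries without it, circles replicate A and squares replicate B. Osbpl7 and Pitpnm3 are called, and on the right the pale blue Npm1 points are the lowest in every row.

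The promoter windows in these regions are shown so that their CpG content, the substrate of DNMT3A, can be read beside the accessibility values. They come from RefSeq (build GRCm38.p6, the same assembly as mm10) and run from 250 bases before to 50 after the annotated start, 5′ to 3′ on the strand of the gene, with CG in capitals. The regions that were lower with the Dnmt3a mutation and overlapped a window, by smallest p, gave these 3 sequences.
Gm51917 promoter, chr11:97058863-97059162, minus strand: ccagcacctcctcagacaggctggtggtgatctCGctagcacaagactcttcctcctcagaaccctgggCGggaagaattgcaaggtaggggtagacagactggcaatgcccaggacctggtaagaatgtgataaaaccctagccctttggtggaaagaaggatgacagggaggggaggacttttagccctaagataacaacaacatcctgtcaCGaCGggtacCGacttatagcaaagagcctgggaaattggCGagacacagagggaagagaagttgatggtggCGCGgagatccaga
Pitpnm3 promoter, chr11:72135840-72136139, minus strand: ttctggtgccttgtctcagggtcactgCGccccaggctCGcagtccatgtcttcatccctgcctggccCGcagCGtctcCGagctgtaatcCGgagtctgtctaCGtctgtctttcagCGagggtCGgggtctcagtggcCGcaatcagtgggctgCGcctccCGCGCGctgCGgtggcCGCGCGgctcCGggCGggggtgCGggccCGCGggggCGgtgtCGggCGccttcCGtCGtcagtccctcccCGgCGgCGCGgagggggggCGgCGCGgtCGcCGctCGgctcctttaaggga
Hcn4 promoter, chr9:58822699-58822998, plus strand: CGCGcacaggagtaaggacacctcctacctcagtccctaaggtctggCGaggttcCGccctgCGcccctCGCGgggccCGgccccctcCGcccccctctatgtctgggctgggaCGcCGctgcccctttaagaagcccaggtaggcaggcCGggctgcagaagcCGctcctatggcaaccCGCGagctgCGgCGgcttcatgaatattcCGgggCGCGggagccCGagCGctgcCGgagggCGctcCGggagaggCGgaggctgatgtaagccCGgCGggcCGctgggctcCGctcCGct
The regions that were higher, though not past the threshold, gave these 3.
Ppme1 promoter, chr7:100371847-100372146, minus strand: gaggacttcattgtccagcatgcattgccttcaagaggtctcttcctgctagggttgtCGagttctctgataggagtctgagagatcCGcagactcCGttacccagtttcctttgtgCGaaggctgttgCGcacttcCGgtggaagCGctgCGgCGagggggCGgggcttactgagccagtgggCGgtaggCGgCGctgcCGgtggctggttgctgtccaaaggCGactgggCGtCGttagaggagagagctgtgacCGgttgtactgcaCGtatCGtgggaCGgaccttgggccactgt
Ppp2r5a promoter, chr1:191396992-191397291, minus strand: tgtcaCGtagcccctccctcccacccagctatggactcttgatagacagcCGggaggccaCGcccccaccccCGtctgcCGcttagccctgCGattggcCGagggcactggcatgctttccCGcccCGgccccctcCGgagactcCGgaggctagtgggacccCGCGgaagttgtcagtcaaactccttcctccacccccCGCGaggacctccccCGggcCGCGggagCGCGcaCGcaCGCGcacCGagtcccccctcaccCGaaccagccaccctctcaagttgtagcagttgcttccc
Sgo1 promoter, chr17:53689266-53689565, minus strand: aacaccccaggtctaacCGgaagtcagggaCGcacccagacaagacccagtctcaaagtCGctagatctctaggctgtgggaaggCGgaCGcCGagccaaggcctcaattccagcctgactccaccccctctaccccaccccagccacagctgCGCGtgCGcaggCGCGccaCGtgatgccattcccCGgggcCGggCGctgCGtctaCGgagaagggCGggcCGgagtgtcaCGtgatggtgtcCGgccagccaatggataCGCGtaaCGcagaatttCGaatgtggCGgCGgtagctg
The Gm51917 window in the Osbpl7 region held 8 CpG and a CpG ratio (observed over expected from its C and G) of 0.389. The Pitpnm3 window held 38 CpG, the Hcn4 window 31, the Ppme1 window 21, the Ppp2r5a window 25 and the Sgo1 window 27, with CpG ratios of 0.971, 0.805, 0.810, 0.753 and 0.871. The median was 22 CpG in the 10145 windows in tested regions and 7 in all 32851 windows. Of the windows in the 2 called regions, that of Pitpnm3 lay above both medians. That of Gm51917 lay below the median of windows in tested regions and near that of all windows.

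Over the 10145 tested regions with a promoter window, the median log2 difference was 0.00 in the quartile with the lowest CpG ratio, and 0.14, 0.19 and 0.20 in the quartiles above it. The medians were -0.02, 0.22, 0.29 and 0.30 for Dnmt3a;Npm1 minus Npm1, and 0.01, 0.04, 0.05 and 0.05 for Dnmt3a minus WT. Mean signal moved along with CpG content, with medians of 212.1, 317.2, 367.7 and 411.1 in the same quartiles, and the part of the signal level in this order was not tested. The median log2 difference was 0.09 for regions within 1 kb of a gene end, and for those further inside genes -0.13 and for those between genes -0.10.

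Short motifs were searched on both strands of the windows. CCAAT, the NF-Y motif, stood in 37.0% of windows in tested regions and in 37.4% of all windows, and occurs in the Gm51917, Ppp2r5a and Sgo1 windows. Tested promoter regions with it had an unadjusted p under 0.05 and a higher signal with the Dnmt3a mutation in 13.8% of cases, against 8.05% of those without it, and medians of 0.21 and 0.10. CCGGAAG, an ETS motif, stood in 17.1% of those tested and in 8.86% of all windows, with medians of 0.22 and 0.12 with and without it. TGTGGT, the RUNX motif, stood in 12.0% of those tested and in 16.8% of all, with medians of 0.13 and 0.14. GGGCGG, the SP and KLF motif, stood in 68.4% of those tested and in 35.7% of all. The median mean value of regions with CCAAT was 353.0 and of those without it 310.0, and for TGTGGT 288.0 and 330.0, and the part of that in the differences was not tested. These matches are letters in a window and not sites of binding.

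Gene lists were described by the regions assigned to their genes. In all tested regions the median log2 difference was 0.00, 50.2% were positive, and 5.89% were higher and 6.11% lower by an unadjusted p under 0.05. No region of any list was called. Scaling to library totals moved the median of all tested regions to 0.55 and those of the 18 lists by 0.52 to 0.56. Dropping the filter on low values moved all tested regions to 0.76 and the lists by 0.70 to 0.77. Both settings thus moved the lists and all tested regions alike. The list medians given here are from settings that kept the median of all tested regions within 0.02 of 0. The list of developmental homeobox and Polycomb target genes, most of which are silent in blood cells and carry CpG-rich starts, held 70 regions, of which 8 were positive, 11 (15.7%) had an unadjusted p under 0.05 and were lower, and none was higher by that measure. Its median log2 difference was -0.34, and 0.14 with 42 positive when both Npm1 libraries were left out. Its median mean value was 146.8, in the range where all regions of low signal had negative medians. Per library, the median log2 value around each region's mean was -0.40 in Dnmt3a B, -0.03 in Dnmt3a;Npm1 A and 0.07 in Dnmt3a;Npm1 B, against -0.37 in WT A, -0.05 in WT B, 0.61 in Npm1 A and 0.43 in Npm1 B. Dnmt3a;Npm1 libraries lay near WT B on this list, and the Npm1 libraries stood above all others.

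The region of smallest p on that list lay at Irx1, an Iroquois homeobox gene of embryonic patterning. Its normalized signal was 47.0, 84.5 and 92.9 in Dnmt3a B, Dnmt3a;Npm1 A and Dnmt3a;Npm1 B, against 94.9, 162.1, 198.6 and 242.0 in WT A, WT B, Npm1 A and Npm1 B (log2 difference -1.29, SE 0.40, limma adjusted p = 0.245). The groups did not overlap, by a narrow margin between Dnmt3a;Npm1 B and WT A. At Zic2, a zinc finger gene of neural patterning, the values were 170.5, 140.8 and 151.8 with the Dnmt3a mutation and 196.4, 244.5, 436.6 and 233.3 without it (-0.81, SE 0.32). At Pax5, the commitment factor of B cells, they were 31.8, 140.8 and 62.2 with the mutation and 52.7, 346.4, 217.3 and 322.6 without it (-1.66, SE 0.50), and the groups overlapped through WT A.

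The Hox and Meis genes, which set stem cell renewal and are high in leukaemia with NPM1 mutation, had 48 regions with a median log2 difference of -0.15, which was 0.04, with 26 positive, without Dnmt3a;Npm1 B. That library had a median of -0.33 around each region's mean, against 0.00 in Dnmt3a B and 0.12 in Dnmt3a;Npm1 A. By unadjusted p, 7 (14.6%) were lower and none higher. The regions of smallest p lay at Hoxb1 and Hoxc10, and at both the groups overlapped. The log2 difference at Hoxb1 was -1.28 (SE 0.38, limma adjusted p = 0.229), with Dnmt3a;Npm1 A at 166.9 above WT B at 145.6. At Hoxc10 the difference was -0.96 (SE 0.32, limma adjusted p = 0.263), with Dnmt3a;Npm1 B at 185.9 above WT B at 170.8. Hoxa11 was chosen after its values were seen, and was the only region of the list with all mutant libraries below the others. At Hoxa11 the values were 134.9, 243.3 and 223.2 with the Dnmt3a mutation and 246.6, 280.5, 403.5 and 391.8 without it (-0.83, SE 0.28, limma adjusted p = 0.263), and the groups lay side by side without overlap. At Hoxa9, the region of highest signal had 438.8, 343.9 and 234.8 with the mutation and 466.0, 587.1, 378.6 and 538.7 without it (-0.50, SE 0.26, adjusted p = 0.435), overlapping through Npm1 A. At Meis1, the cofactor of Hoxa9, the 9 regions had log2 differences of -0.53 to 0.65. Hoxb4 had 1 region, at -0.26.

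The MPP3 marker list had 20 regions, with 3 positive, a median log2 difference of -0.57 and 2 (10.0%) lower by unadjusted p, and medians of -0.98 with and -0.07 without the Npm1 mutation. With both Npm1 libraries left out its median was 0.27, with 12 positive. At Mpo, the myeloperoxidase of granule-forming myeloid cells, the values were 56.8, 68.4 and 6.6 in Dnmt3a B, Dnmt3a;Npm1 A and Dnmt3a;Npm1 B, against 82.4, 75.7, 184.2 and 129.6 in WT A, WT B, Npm1 A and Npm1 B (-1.69, SE 0.65, limma adjusted p = 0.309). At Csf3r, the receptor of granulocyte colony-stimulating factor, they were 134.1, 160.9 and 69.7 with the mutation and 169.2, 303.7, 223.5 and 267.9 without it (-1.0, SE 0.35, adjusted p = 0.288). Neither pair of groups overlapped. Over the whole MPP3 list the median log2 value was 0.63 in Npm1 A and 0.80 in Npm1 B and at most -0.01 in each other LT-HSC library. The myeloid list, with 54 regions, had a median of -0.17, and the lymphoid list, with 62, of -0.16. With both Npm1 libraries left out they were 0.12 (30 of 54 positive) and -0.10 (25 of 62), and Dnmt3a minus WT gave -0.01 and -0.13.

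The 28 regions of LT-HSC markers had a median log2 difference of 0.16, with 17 positive, and -0.06 without Npm1 A. Procr, which encodes the endothelial protein C receptor used to sort stem cells, had 3 regions at 0.18 to 1.05. The one of smallest p, 8428 bp from the gene, had 147.0, 133.7 and 214.1 with the Dnmt3a mutation and 94.9, 127.1, 62.1 and 54.7 without it (1.05, SE 0.42, limma adjusted p = 0.321). All mutant libraries lay above the others. Mecom, a transcription factor of stem cell maintenance, had 4 regions at -0.03 to 0.35, and Hlf, a stem cell bZIP factor, 6 regions at -0.72 to 0.50. The wider stem cell identity list of 137 regions had a median of 0.07, and the list of genes held down by Dnmt3a in stem cells, 87 regions, also 0.07. The second of these was -0.09 without Dnmt3a B, which leaves only the difference with the Npm1 mutation, and -0.03 with the share of signal as covariate. Kit, Gata2, Runx1 and Cebpa had 2, 4, 11 and 2 regions, with log2 differences of -0.82 to 0.47, -0.83 to 0.09, -1.03 to 0.62 and -0.08 to 0.03.

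Genes of DNA methylation and histone modification had 71 regions with a median log2 difference of 0.16, of which 9 (12.7%) were higher and 5 (7.04%) lower by unadjusted p. The median was -0.10 (29 of 71 positive) without both Npm1 libraries and 0.01 with cyclic loess, and the median mean value was 404.7 against 197.5 for all tested regions. Dnmt3a itself had 6 regions at -0.32 to 0.58, the smallest adjusted p being 0.364, and Npm1 had 1 at -0.02. Accessibility at these genes does not check the genotype labels. At an internal region of Tet2, whose product oxidizes methylcytosine, the values were 72.0, 79.4 and 47.3 with the Dnmt3a mutation and 108.0, 233.9, 175.9 and 224.7 without it (-1.42, SE 0.41, limma adjusted p = 0.223). At the start of Ezh2, the Polycomb methyltransferase, they were 798.7, 708.9 and 708.6 with the mutation and 679.0, 678.3, 318.6 and 328.4 without it (0.77, SE 0.24, adjusted p = 0.253). Neither pair of groups overlapped, and at Ezh2 both WT libraries lay close to the mutant ones. Another Tet2 region, of higher signal (chr3:133543885-133545721), went the other way, with overlapping groups (0.56, SE 0.27, limma adjusted p = 0.404). The list's median was 0.23 with the Npm1 mutation and -0.02 without it.

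The early response list, genes such as Fos, Klf6 and Nr4a2 that respond within minutes to stimuli and handling, had 99 regions with a median log2 difference of 0.15, 64 positive, 12 (12.1%) higher and 3 (3.03%) lower by unadjusted p. The median was 0.06 without both Npm1 libraries and 0.03 with cyclic loess, and the median mean value was 302.5 against 197.5 for all tested regions. At Fosb the values were 1104.1, 1370.6 and 1920.8 with the Dnmt3a mutation and 930.6, 895.7, 939.4 and 757.6 without it (0.67, SE 0.23, limma adjusted p = 0.279). At a region in Fos they were 185.7, 246.4 and 253.1 with the mutation and 150.2, 75.7, 146.9 and 132.5 without it (0.80, SE 0.35, adjusted p = 0.359). Both Fosb and Fos separated the groups, and for Fos the difference was 0.82 with the Npm1 mutation and 0.77 without it. At Klf6, with 701.0, 688.8 and 1017.3 against 763.8, 641.4, 312.4 and 290.9 in the same order of libraries, it was 1.46 with the Npm1 mutation and 0.00 without it. Over the list the median was 0.22 with and -0.02 without the Npm1 mutation.

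The remaining lists had medians between -0.16 and 0.13. Interferon response genes, of interest because poly(I:C) was given to all mice, had 57 regions at 0.13, cell cycle genes 73 at 0.12, genes that cooperate in acute myeloid leukaemia 85 at 0.07, and TNF and NF-kB genes 77 at -0.11. Erythroid and megakaryocyte genes had 58 regions at -0.13, mast cell, basophil and eosinophil genes 15 at 0.07, niche genes 25 at -0.14 and imprinted genes sensitive to methylation 29 at -0.16. With both Npm1 libraries left out, the medians were -0.09 (23 of 57 positive) for interferon response, -0.01 (36 of 73) for cell cycle and 0.02 (17 of 29) for imprinted genes, and Dnmt3a minus WT gave 0.02, 0.00 and 0.11. Without Dnmt3a;Npm1 A the imprinted list stood at 0.04 and the TNF and NF-kB list at 0.01. The mast cell, basophil and eosinophil list was at 0.10 without Dnmt3a;Npm1 A and at -0.24 to 0.00 without any other single library. The niche list was at 0.02 with the share of signal as covariate, and the imprinted list at 0.14. Cdk1, which drives entry into mitosis, had 309.2, 384.1 and 411.6 with the Dnmt3a mutation and 355.6, 226.1, 103.5 and 132.5 without it (1.09, SE 0.32, limma adjusted p = 0.226), overlapping through WT A.

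**Figure D3:**
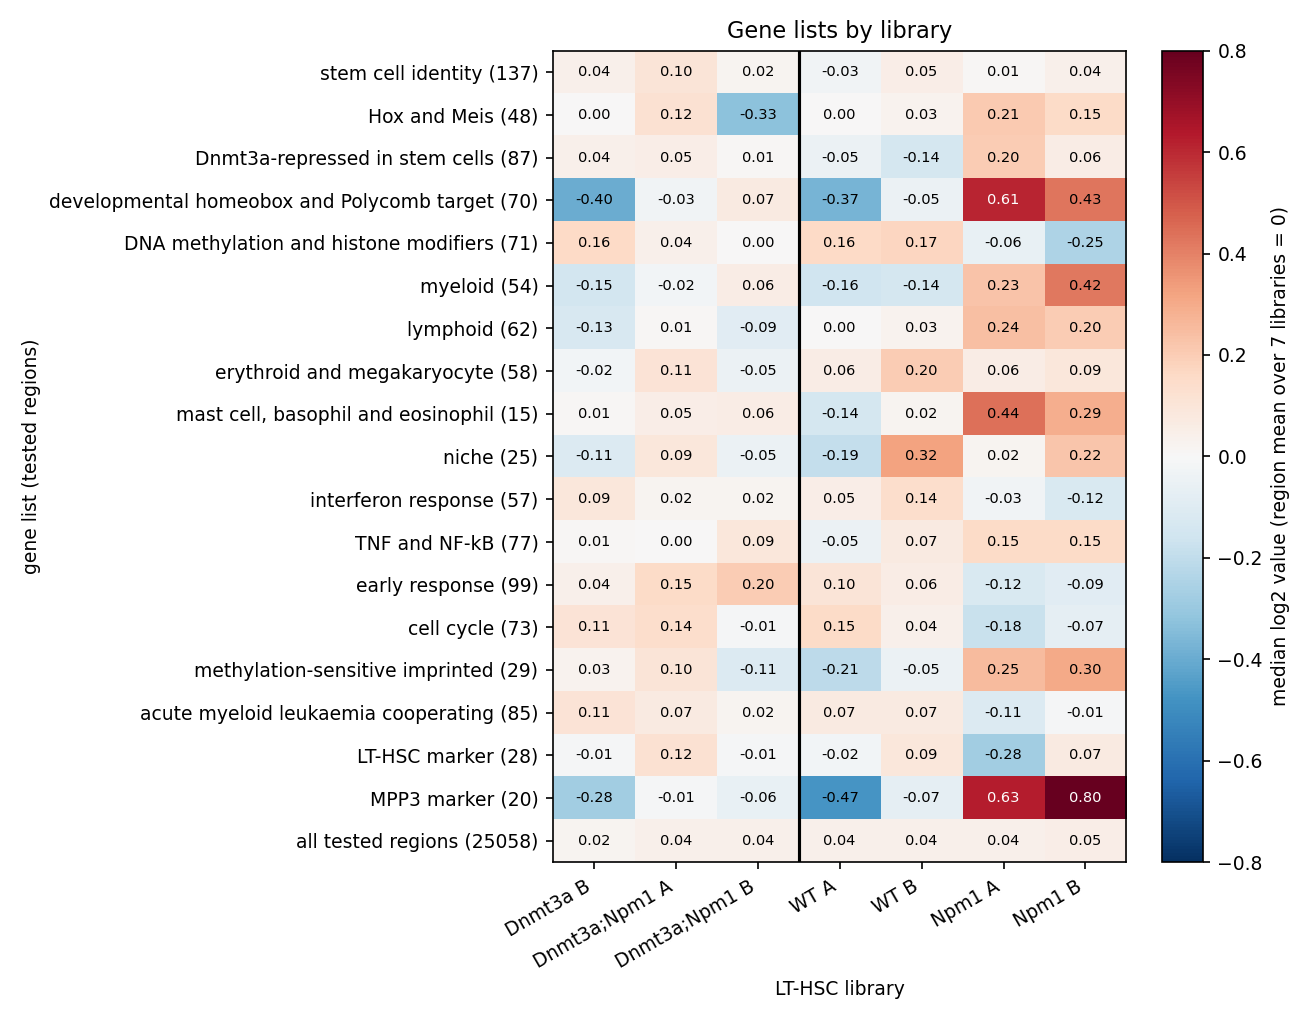
Median log2 value of each gene list's tested regions in each LT-HSC library, with every region's mean over the 7 libraries set to 0 and the number of regions in parentheses. Libraries with the Dnmt3a mutation stand left of the black line. The developmental list at 0.61 and 0.43 and the MPP3 marker list at 0.63 and 0.80 are highest in Npm1 A and Npm1 B, and the lower row holds all tested regions at 0.02 to 0.05.

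The Dnmt3a difference was then taken apart by Npm1 status. Dnmt3a;Npm1 minus Npm1, with 2 libraries against 2, gave 421 called regions, 220 higher and 201 lower. Dnmt3a minus WT, with 1 against 2, gave no called region by limma and 274 with an unadjusted p under 0.05. Across the 25058 regions the 2 differences, which share no library, had a Pearson r of 0.09. A difference in their counts of calls is not a test of their difference, and the interaction was fitted for that. It called 14 regions (0.0559%), all lower, and 1449 (5.78%) had an unadjusted p under 0.05. The 14 were unlike the regions described so far, and no list of problem regions was applied to them. Those at chr2:98662026-98663175, chr2:98663592-98664242 and chr2:98665980-98667613 lay close together. The last had deposited values of 50827 in Dnmt3a;Npm1 A to 176983 in Npm1 A. Their mean values ran from 291.9 to 82134.0, with a median of 1187.9 against 197.5 for all tested regions, 7 lay in the top 1% by mean value and 10 outside any gene. In each, both Npm1 A and Npm1 B were at least 2.45 times above the highest other library after normalization. None was called without Npm1 A or without Npm1 B. Without WT A, Dnmt3a;Npm1 A or Dnmt3a;Npm1 B only a part of the 14 stayed called. Without WT B all of them did, with other regions added.

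**Figure D4:**
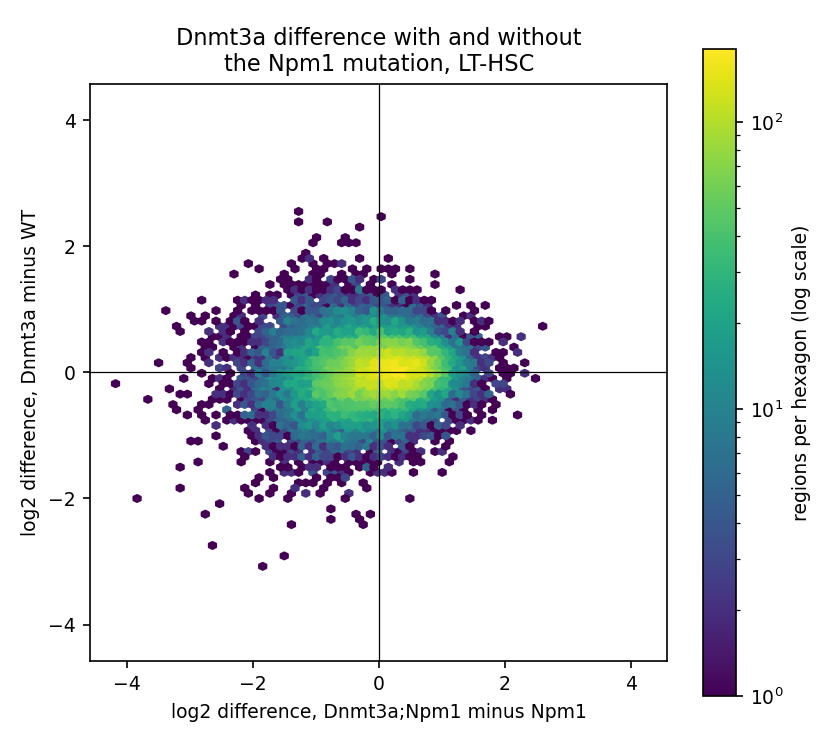
Log2 difference between libraries with and without the Dnmt3a mutation, Dnmt3a;Npm1 minus Npm1 on the x axis and Dnmt3a minus WT on the y axis, for 25058 tested regions counted in hexagons on a log colour scale. The cloud is wider than tall and shows little slope, with a Pearson r of 0.09.

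In MPP3, no region was called for the Dnmt3a mutation (limma, 0.0%), and 1739 (6.94%) had an unadjusted p under 0.05. The difference between the cell types, LT-HSC minus MPP3, was fitted over all 14 libraries and called none, with 4056 regions (16.2%) at an unadjusted p under 0.05. Across regions the LT-HSC and MPP3 differences, which share no library, had a Pearson r of -0.28. Where all 3 mutant LT-HSC libraries were below the others, 286 of 726 regions (39.4%) had the same sign in MPP3, and where they were above, 241 of 741 (32.5%). The same share over all tested regions was not worked out, so these shares cannot be read as a trait of the separated regions. In MPP3 the order by signal level ran the other way, with medians of 0.14 in the lowest quartile and -0.13 in the highest. The developmental list had a median of 0.34 in MPP3. At Gm46259 the log2 difference was -1.80 (SE 0.38) in LT-HSC and 1.33 (SE 0.42) in MPP3, and at Abtb1 -2.51 (SE 0.46) and -0.60 (SE 0.44). The adjusted p of the cell type difference was 0.126 for Gm46259 and 0.180 for Abtb1.

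**Figure D5:**
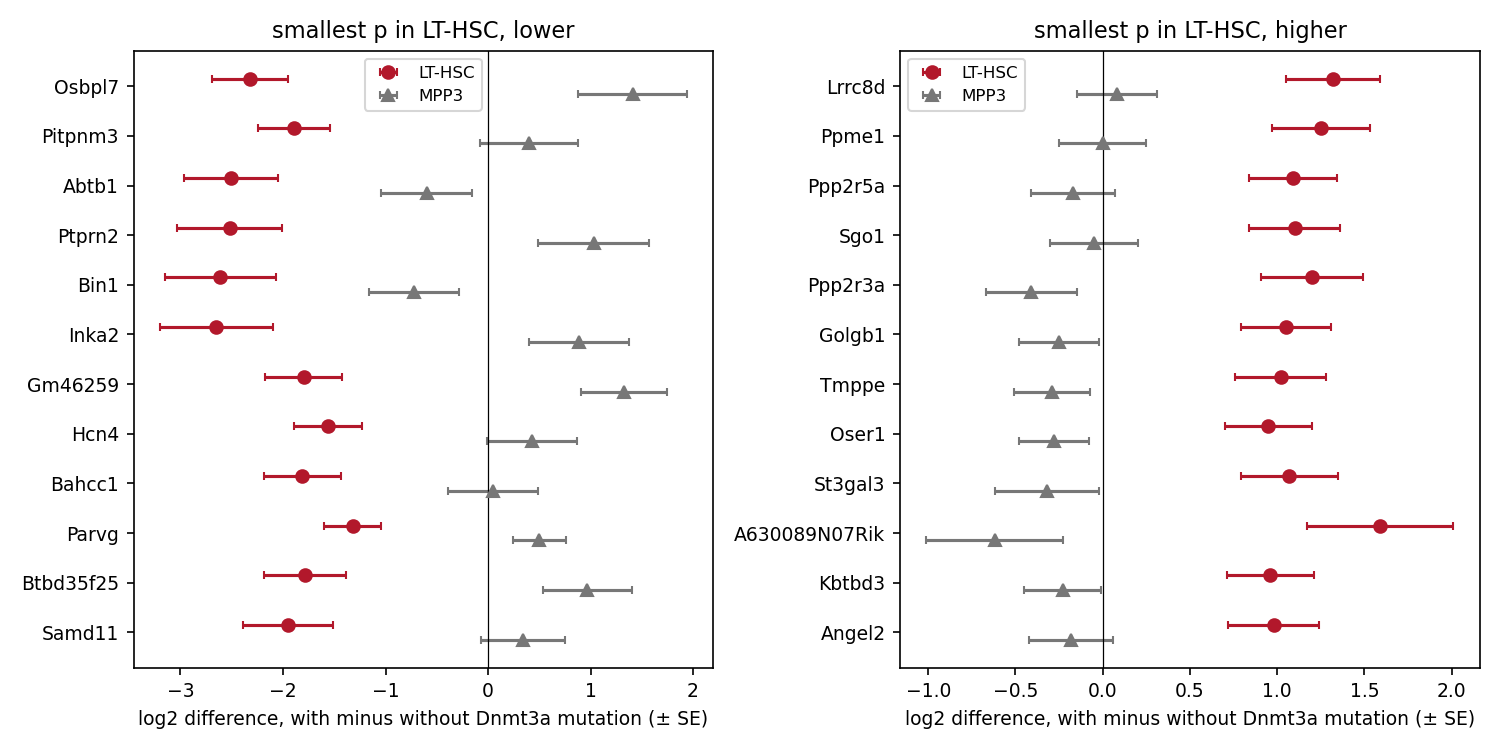
Log2 difference between libraries with and without the Dnmt3a mutation, with limma standard errors, in LT-HSC (red circles) and MPP3 (grey triangles) for the 12 regions of smallest p in LT-HSC in each direction. The LT-HSC points were chosen for their size, and the MPP3 points lie between -0.72 and 1.41 with none past the threshold.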

How the data were processed

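The deposited table gives whole-number signal values per region and library on build mm10, per the labels. In 8 of the 14 libraries the deposited values lie on multiples of a step of the library's own, so reads had been scaled before deposit. In the others no step was found, and the search cannot tell plain counts from scaled values there. The values were not taken as counts, and count models were not used. DiffBind 2.12.0, HOMER 4.10 and R 3.6.0 stand in the submitters' processing notes without roles; the aligner, the peak caller and any read shift are not given in the sources used here, and no list of problem regions was applied. Values were divided by TMM factors (trimmed mean of M values) from the 25058 tested regions, and limma 3.58.1 in R 4.3.3 was fitted to log2(value + 4), with Dnmt3a and Npm1 as terms over the 7 LT-HSC libraries (4 residual degrees of freedom), a robust, trended prior variance and two-sided Benjamini-Hochberg adjustment over all tested regions. The LT-HSC Dnmt3a group is 1 library and is assumed to vary like the others. A log2 difference understates changes of low regions. The interaction used 4 group means. The cell type comparison and the MPP3 differences used all 14 libraries, with additive Dnmt3a and Npm1 terms within each cell type (8 residual degrees of freedom). Errors with log2 differences are limma standard errors. Each region took the name of the gene it overlaps or of the nearest within 100000 bp in a RefSeq table of GRCm38.p6. The libraries, the 18 gene lists and the tests were chosen with earlier results of these data known. Named regions were the 12 of smallest p in each direction, 1 per gene, called or not, the 2 of smallest p in each list, the region of highest mean value of 12 fixed genes, and the interaction calls, which were added after their values were seen. Other list regions with values in the text (Zic2, Hoxa11, Fosb, Fos, Fosl2, Cebpd and the higher Tet2 region) were chosen after their values were seen. The fit was also run on simulated data with independent noise, no deviating libraries and no trend with signal level. That run cannot show how the fit behaves with libraries such as Npm1 A and Npm1 B.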

Additional observations from a re-analysis of the deposited data

Results flagged for a closer look

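The Dnmt3a difference with the Npm1 mutation differed from that without it in 14 regions by the interaction term of limma, all with a lower difference in Dnmt3a;Npm1 minus Npm1. The log2 interactions of smallest p were -3.28 at chr2:98663592-98664242, -3.1 at chr9:2999994-3000800 and -3.06 at chr14:19415479-19419869, none of which lies in a gene. No list of problem regions was applied to these calls. At the first, the normalized signal was 741.1 in Dnmt3a B, 620.4 in Dnmt3a;Npm1 A and 836.4 in Dnmt3a;Npm1 B, against 277.2 in WT A, 677.4 in WT B, 4649.3 in Npm1 A and 3669.9 in Npm1 B. The deposited values there were 978, 617 and 1008 with the Dnmt3a mutation and 552, 698, 2247 and 1274 without it. The TMM divisors of Npm1 A and Npm1 B, 0.483 and 0.347, were the lowest of the 7, and their part in these values was not tested.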

How the results depend on the processing

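The Dnmt3a count of 2 called regions was 2 with median-of-ratios scaling and 3 with the replicate block. It was 0 with scaling to the library total, a mean of at least 50, no filter, plain eBayes, the share of signal as covariate, no Npm1 covariate, all 14 libraries in 8 groups, the 3 against 2 without both Npm1 libraries, and the difference without the Npm1 mutation alone. It was 7 with cyclic loess and 4 with a mean of at least 200, a filter that removed both Osbpl7 and Pitpnm3, so those 4 are other regions. It was 1 with a pseudocount of 1, 11 with a pseudocount of 16, 1 with genotype group means and 421 for the difference with the Npm1 mutation alone, and 0 to 416 when single libraries were left out. The interaction count of 14 was 0 with total scaling, a mean of at least 50, no filter or plain eBayes, 3 with the replicate block, and 0 to 39 when single libraries were left out, where it cannot be estimated without Dnmt3a B. The cell type count of 0 was 2940 with total scaling, 2 with cyclic loess, 3 with a mean of at least 200, 1 with a pseudocount of 16, and 0 to 713 when single libraries were left out. The difference in share of signal was 2.0 to 11.7 percentage points over those libraries. The causes were not tested. For the Dnmt3a term, leaving out Dnmt3a B gives the difference with the Npm1 mutation alone, so these are not 2 separate checks. Same-lettered libraries did not deviate together (correlations of -0.038, -0.034 and 0.059 between groups), so the letters were not taken as pairs. The alternatives without both Npm1 libraries and by Npm1 status were added after the data were seen.

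Of 1599 values of 68 named regions, 42 had the opposite sign, none of them among the 24 regions of smallest p; 83 others were called under an alternative, and 27 lost the call. Total scaling, which moves the median of all regions to 0.55, gave log2 differences of 0.31 at Dnmt3a, 0.53 at Npm1, 0.06 at Hoxa9, 0.29 at Hoxb4, 0.32 at Meis1 and 0.11 at Gata2. Without a filter, which moves tested regions to 0.76, they were 0.53, 0.75, 0.27, 0.50, 0.53 and 0.33 at the same genes and 0.04 at Hlf, and with a mean of at least 50, which moves them to 0.29, 0.05 at Dnmt3a, 0.27 at Npm1, 0.03 at Hoxb4 and 0.05 at Meis1. With cyclic loess they were -0.01 at Mecom, -0.16 at Runx1 and -0.31 at Cebpa, and with a mean of at least 200, -0.06 at Runx1 and -0.14 at Cebpa. The replicate block gave 0.11 at Npm1, and the share covariate 0.01 at Hoxb4. Without both Npm1 libraries they were 0.11 at Kit, -0.08 at Birc2, 0.13 at Peg3 and 0.04 at Npm1. With the Npm1 mutation alone they were -0.04 at Runx1 and -0.03 at Cebpa, and without it -0.08 at Birc2, 0.00 at Klf6, 0.07 at Npm1, 0.20 at Hoxb4 and -0.20 at Hlf. Leaving out single libraries gave -0.23 to 0.22 at Npm1, -0.04 to 0.27 at Runx1, -0.03 to 0.10 at Cebpa and -0.57 to 0.11 at Hoxb4.

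With 3 libraries against 4, of which 1 genotype has 1 library, the counts of calls rest on a spread estimated over few libraries, and the depth of Npm1 B is unknown. The low share of signal and the higher MPP3 marker signal fall together in the Npm1 libraries and cannot be told apart. The Dnmt3a;Npm1 libraries, which also carry the Npm1 mutation, had shares of 31.03% and 30.44% and MPP3 marker sums of 3356 and 3370.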

Other observations

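Genes of the phosphatase PP2A appeared 3 times among the 12 higher regions of smallest p, and the set was drawn up after that was seen, so no test was made. The 29 tested regions of 16 genes for its subunits, its activator and its methylesterase had a median log2 difference of 0.20, with 19 positive, 5 higher and none lower by unadjusted p under 0.05, where 5.89% and 6.11% of all tested regions were. The 5 include the 3 that prompted the set, and without those the other 26 regions had a median of 0.11, with 16 positive and 2 higher. The median mean value of the 29 regions was 317.5. In the quartile of all tested regions that holds this level, the median log2 difference was 0.05. The part of the signal level in the values of the set was not tested.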
